A study of Arabidopsis thaliana with 24 samples.

Results

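The genes described here encode the large molecular chaperones of Arabidopsis and the proteins that work with them: the HSP70 family, the HSP90 family, the HSP100 disaggregases (ClpB proteins and HSP101), the HSP60 chaperonins, and the HOP, ROF, DNAJ, SGT1 and BAG co-chaperones. The list was taken by gene identifier and leaves out the small heat shock proteins. It holds 37 genes, of which 13 belong to HSP70, 6 to HSP90, 3 to HSP100, 5 to HSP60 with its co-chaperonins, and 10 to the co-chaperones. By the compartment of their protein, 20 are cytosolic, 4 act in the endoplasmic reticulum (ER), 7 in the chloroplast and 6 in the mitochondrion. Of the 37 genes, 34 were among the 10930 genes with counts in low light and 35 among the 11166 genes with counts in high light. HSP70T-2 and the mitochondrial disaggregase CLPB4 were in neither table. ROF2 was only in the high light table.

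Every seedling was of the *Ch1* mutant in the Col-0 ecotype. *Ch1* lacks chlorophyll a oxygenase and therefore chlorophyll b and most of its light-harvesting antenna, and no wild type was analysed here, so the values describe the mutant alone. Whole seedlings of 2 weeks, raised on sucrose medium at 22 °C, were kept in water for at least 1 h and then placed in water under low light (LL, 30 µE) or high light (HL, 1000 µE). They were taken at 0, 1, 2 and 4 h, which gives 8 groups of 3 libraries. The 0 h groups carry the label of the light level they precede, and the temperature of the water under the lamps is not given in the sources used here. MARS-seq reads tag the 3′ end of each transcript, so a count does not grow with the length of the transcript. Levels of different genes are set side by side on that ground, but an end shared with or overlapping another gene can shift them.

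Chaperones bind proteins whose folded state is not complete and use ATP to release, refold or pull them apart. HSP70 proteins take unfolded chains from J-domain (DNAJ) partners, HOP proteins bridge HSP70 to HSP90, HSP90 finishes the folding of many signalling proteins, HSP100 extracts chains from aggregates, and the HSP60 barrel encloses single chains inside chloroplasts and mitochondria. Cytosolic forms are classic targets of heat shock factors, which bind inverted repeats of GAA called heat shock elements. ER forms respond instead to unfolded secretory proteins through bZIP factors. Chloroplasts hold their own set for imported and photodamaged proteins.

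Levels are CPM, a gene's counts over the total of its library on the usual scale, after TMM scaling of all 24 libraries, given per library as replicates 1, 2 and 3 or as mean ± SD (n = 3). A library held between 1163870 and 2061753 counts in the LL series (median 1582042) and between 1617051 and 2070855 in the HL series (median 1845815). A change is a log2 fold change from edgeR's quasi-likelihood test, a gene is called higher or lower where the Benjamini-Hochberg adjusted p is under 0.05 and the change is at least 2-fold, and "passed the adjusted p alone" marks a change below 2-fold. The 3 comparisons of a light level with its 0 h share those 0 h libraries. Nothing in the labels says that replicates came from separate cultures, so a p-value here covers no more than the spread among these libraries. The shoot markers RBCS1A, CA1, CAB1 and RCA were high in every library, with a summed level of 32750 to 36870 CPM at 0 h and 11280 to 14120 CPM at 4 h of LL, and of 27740 to 32300 CPM at 0 h and 15250 to 19270 CPM at 4 h of HL. At 4 h all 4 were lower than at 0 h in LL. At 4 h of HL 1 of the 4, CAB1, was lower, while 2 passed the adjusted p alone as higher and the median change was 0.505. The part of these markers in the chaperone values was not tested. The 6 root markers summed to 193.3 to 461 CPM, and none of the 10 markers was at 0 in any library.

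At 1 h, 7 of the 34 chaperone genes tested in LL and 16 of the 35 tested in HL had risen, where 3.42% of all genes tested in LL and 3.96% in HL were called higher. All 7 genes called in LL were among the 16 called in HL. At 2 h, 3 genes were called higher in LL (4.34% of all genes) and 14 in HL (4.71%), and at 4 h none was called higher in LL (5.74%) while 10 were in HL (7.51%). Over the 3 times of HL, 18 genes were called higher at least once and 8 at every time. Calls of a lower level than at 0 h were made only in LL, with 2 genes at 1 h (7.01% of all genes), none at 2 h (8.15%) and 6 at 4 h (10.8%). Of these LL counts, the 6 at 4 h became 2 without replicate 2 of LL 0 h and 3 without replicate 3 of LL 4 h, and the total called at 2 h became 5 without replicate 3 of LL 0 h. Without replicate 3 of LL 1 h, 13 genes were called at 1 h of LL, 11 of them higher. In HL no chaperone gene was called lower at 1 h (5.05%), 2 h (7.2%) or 4 h (8.17%), although BIP3 was called lower at 4 h with the replicate number as a block (-1.42, adjusted p = 0.0389) or without replicate 3 of HL 4 h (-2.94, 0.00603). The median log2 fold change of the genes was 0.59, 0.33 and -0.23 at 1, 2 and 4 h of LL and 1.06, 0.87 and 0.50 in HL, while the median over all genes tested lay between -0.04 and 0.04 in each of these comparisons. In whole seedlings, fewer cells of a type and less RNA per cell cannot be told apart.

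**Figure D1:**
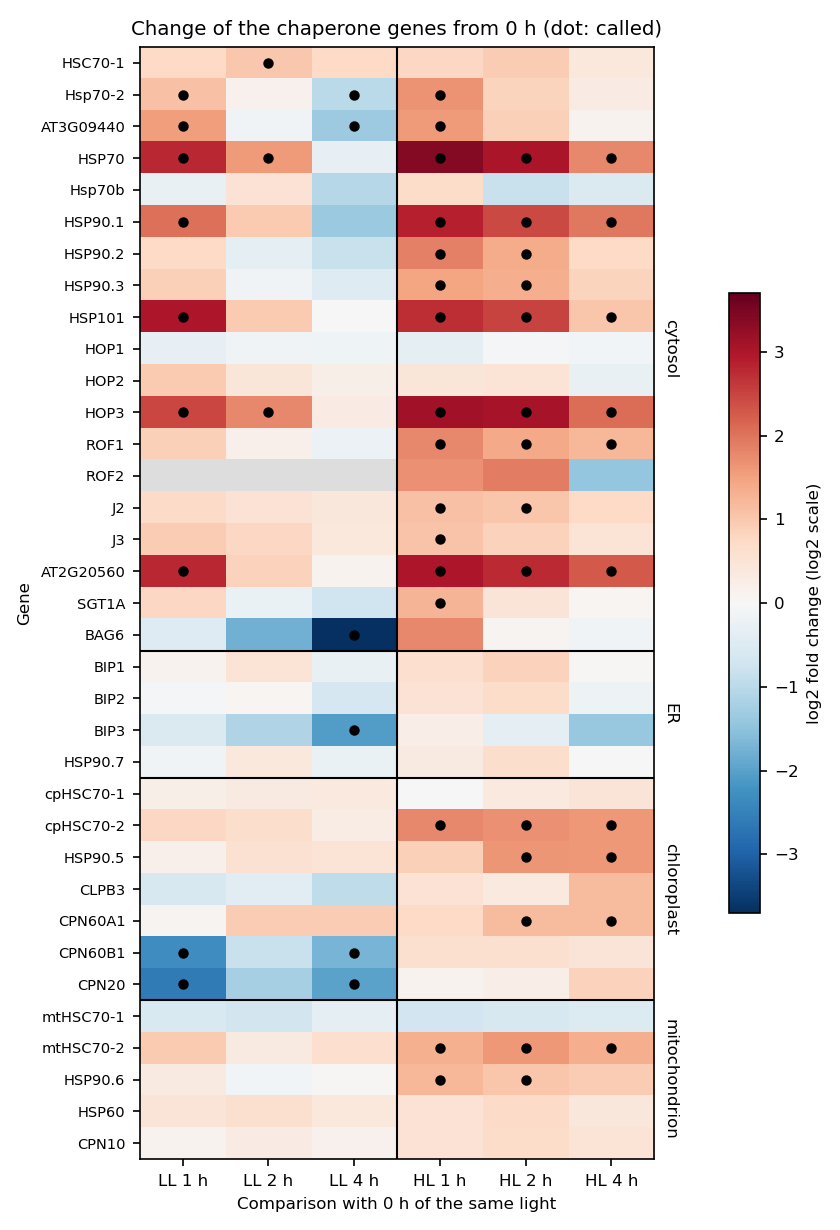
Log2 fold change of the 35 chaperone genes against 0 h of the same light at 1, 2 and 4 h (columns), grouped by compartment; red is higher, blue lower, grey not in the table, and a black dot marks a call. At 1 h, 7 genes were called higher in LL and 16 in HL, and at 4 h 0 in LL and 10 in HL.

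The cytosolic genes carried most of these calls. Of 18 tested in LL, 7 rose at 1 h, and of 19 tested in HL, 13 rose at 1 h and 6 were still higher at 4 h. Their mean level peaked at 1 h for 14 of 18 genes in LL and for 15 of 19 in HL. The share of all genes with their highest mean at each time was not computed, here or for the other compartments. In LL, replicate 1 was the highest of the 1 h libraries for 7 of the 7 genes called there. Without it Hsp70-2 and HSP90.1 were no longer called and HOP2 was (1.02, adjusted p = 0.0215).

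Cytosolic chaperone genes are classic targets of heat shock factors, whose action was not measured here. The 300 bases upstream of each start codon, as they lie in the genome, were searched on both strands for 3 adjoining alternating blocks, GAANNTTCNNGAA or TTCNNGAANNTTC, in the TAIR10.1 genome (RefSeq copy). A window before the annotated gene start had been seen first, and 1 of the 20 cytosolic genes matched there (0.485% of all 27443 protein-coding genes). Before the start codon 0.747% of all protein-coding genes held a match. Among the cytosolic genes, 7 of 20 held such a match, and their sites are shown with 30 bases, 5′ to 3′ on the strand of the gene, with the 3 blocks in capitals:
HSC70-1 (chr5:556553-556582, minus strand): caaccatcGAACATTCTCGAAacattttaa
Hsp70-2 (chr5:552685-552714, minus strand): taattacaGAACATTCTGGAAactcaagtc
AT3G09440 (chr3:2905893-2905922, minus strand): atcgaaccGAACATTCTCGAAcctttttaa
AT3G09440 (chr3:2905764-2905793, minus strand): gagccatcGAACCTTCTCGAAactcgagta
HSP70 (chr3:3993845-3993874, minus strand): ttactcgtGAACGTTCTCGAAagctctttg
HSP90.1 (chr5:21352257-21352286, plus strand): gaaaaGAACTTTCTGGAAttcgtttgctca
HOP3 (chr4:7341318-7341347, minus strand): aaaaattcGAAATTTCGAGAActctcttgt
AT2G20560 (chr2:8849995-8850024, minus strand): tcagagatTTCTCGAACGTTCcacagaatt
All of these but the site of HSP90.1 lie inside the annotated gene, in the transcribed leader or its intron, between the annotated gene start and the start codon. Counted from their first capital, they begin between 100 and 295 bases before the start codon. Of the 7 genes, HSC70-1 is the one that was not called at 1 h at either light.

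HSP70 (AT3G12580; TAIR10.1 chr3:3991117-3993886, minus strand), the strongly heat-inducible cytosolic HSP70, had the largest HL change at 1 h among the 35 genes. In LL its 3 libraries read 55.2, 106 and 124 CPM at 0 h, 916, 554 and 495 CPM at 1 h, 306, 274 and 249 CPM at 2 h, and 67.6, 96.1 and 66.4 CPM at 4 h. In HL they read 158, 88.3 and 80.7 CPM at 0 h, 1035, 1255 and 1174 CPM at 1 h, 1030, 817 and 875 CPM at 2 h, and 413, 349 and 393 CPM at 4 h. Every 1 h and 2 h library lay above every 0 h library of its light, and at 4 h this held in HL while the LL libraries were back within the 0 h range. In LL the log2 fold change was 2.80 (SE 0.26, adjusted p = 5.2e-07) at 1 h, 1.56 (0.000172) at 2 h and -0.31 at 4 h. In HL it was 3.40 (SE 0.20, adjusted p = 1.3e-09), 3.02 (1.63e-09) and 1.78 (6.43e-07). From 1 to 2 h the LL level fell by 1.24 on the log2 scale (adjusted p = 0.0093) and from 2 to 4 h by a further 1.87 (0.000375), while in HL the level changed by -0.37 from 1 to 2 h, which did not pass the test, and fell by 1.24 from 2 to 4 h (0.000243). The LL fall from 1 to 2 h was not called without replicate 1 of LL 1 h (-0.91, adjusted p = 0.0748) or replicate 3 of LL 2 h (-1.17, 0.0656).

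**Figure D2:**
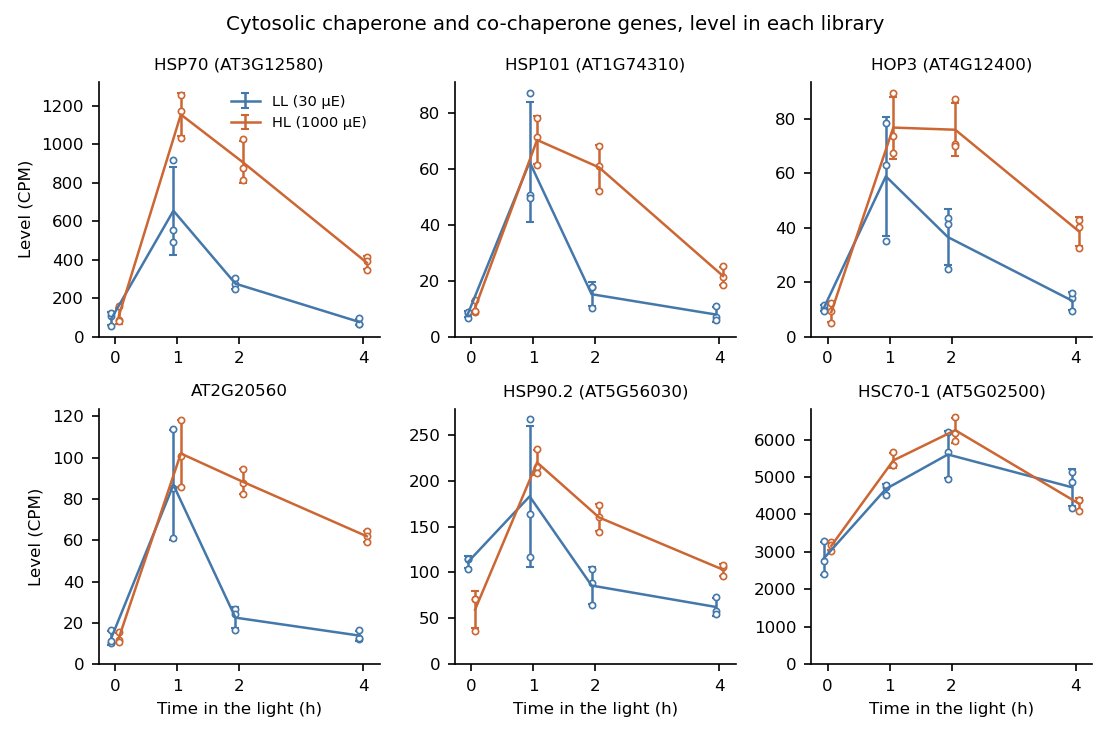
Level in CPM against time in the light for 6 cytosolic genes; open points are libraries, lines join the group means, bars are the SD of 3 libraries, blue is LL and orange HL. At 4 h the HL libraries of HSP70 sit between 349 and 413 CPM, all above the LL libraries at 66.4 to 96.1 CPM, while those of HSC70-1 overlap.

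HSP101 (AT1G74310; chr1:27936508-27940369, minus strand), the cytosolic disaggregase needed for survival of severe heat, showed a similar early rise from a low level. In LL it read 6.74, 8.46 and 8.76 CPM at 0 h, 87.1, 50.7 and 49.4 CPM at 1 h, 10.2, 17.8 and 17.8 CPM at 2 h, and 7.14, 10.9 and 5.89 CPM at 4 h. In HL it read 13, 8.76 and 9.22 CPM at 0 h, 61.3, 78.3 and 71.4 CPM at 1 h, 68.3, 52.2 and 60.9 CPM at 2 h, and 25.2, 21.5 and 18.5 CPM at 4 h. The 1 h libraries of the 2 lights overlapped, whereas at 2 h and 4 h all HL libraries were above all LL libraries. The change at 1 h was 2.99 (SE 0.30, adjusted p = 1.16e-06) in LL and 2.74 (SE 0.21, 2.18e-08) in HL. At 2 h it was 0.96 in LL (adjusted p = 0.0527, called only without replicate 1 of LL 2 h, 1.17, 0.0276) and 2.50 in HL (4e-08), and at 4 h 0.00 in LL and 1.02 in HL (0.00261). From 1 to 2 h the LL level fell by 2.03 (adjusted p = 0.000273), and from 2 to 4 h the HL level fell by 1.48 (4.4e-05). The HL call at 4 h was lost without replicate 2 of HL 0 h (0.96), replicate 3 of HL 0 h (0.93) or replicate 1 of HL 4 h (0.90).

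HOP3 (AT4G12400; chr4:7338018-7341363, minus strand), the stress-induced member of the HOP bridging proteins, kept part of its rise at 2 h in LL. In LL it read 10.4, 11.8 and 9.55 CPM at 0 h, 78.3, 63.1 and 35.3 CPM at 1 h, 43.5, 41.5 and 24.8 CPM at 2 h, and 14.3, 16 and 9.63 CPM at 4 h. The HL libraries read 9.61, 12.4 and 5.19 CPM at 0 h, 73.6, 67.5 and 89.5 CPM at 1 h, 87.3, 70.6 and 70.1 CPM at 2 h, and 40.3, 32.6 and 42.8 CPM at 4 h. At 4 h the LL libraries overlapped those at 0 h and the HL libraries did not. The changes were 2.48 (SE 0.31, adjusted p = 1.34e-05), 1.77 (0.000465) and 0.31 at 1, 2 and 4 h of LL, and 3.10 (SE 0.24, 2.48e-08), 3.06 (1.66e-08) and 2.07 (3.13e-06) in HL. The LL fall of 1.46 on the log2 scale from 2 to 4 h (adjusted p = 0.011) was not called without replicate 1 of LL 2 h (-1.30, 0.0692) or replicate 3 of LL 4 h (-1.27, 0.0761). HOP1 was called at no time, with means between 37.7 and 49.1 CPM. HOP2 came close to the 2-fold limit at 1 h of LL and passed the adjusted p alone (0.97, adjusted p = 0.00848). There its lowest library (38.4 CPM) was above its highest LL 0 h library (31 CPM). HOP2 was called there without replicate 3 of LL 0 h (1.27), replicate 1 of LL 1 h (1.02) or replicate 3 of LL 1 h (1.03).

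AT2G20560 (chr2:8848130-8850111, minus strand), annotated as a DNAJ heat shock family protein, had the largest HL change of the genes at 4 h. In LL it read 10.4, 11.3 and 16.7 CPM at 0 h, 114, 85.3 and 61.1 CPM at 1 h, 26.5, 24.4 and 16.7 CPM at 2 h, and 12.1, 16.5 and 12.8 CPM at 4 h. Under HL the values were 11.9, 15.3 and 10.9 CPM at 0 h, 85.8, 118 and 101 CPM at 1 h, 94.7, 82.5 and 87.6 CPM at 2 h, and 64.4, 62.2 and 59 CPM at 4 h. At 2 h and at 4 h every HL library was above every LL library. The changes were 2.80 (SE 0.26, adjusted p = 5.76e-07), 0.84 (0.0471, below 2-fold) and 0.13 in LL, and 3.01 (SE 0.19, 2.33e-09), 2.77 (2.41e-09) and 2.25 (2.62e-08) in HL. Its LL level fell by 1.96 from 1 to 2 h (adjusted p = 0.00011). The J-domain proteins J2 and J3, which are farnesylated general partners of cytosolic HSP70, moved less: J2 rose at 1 h (1.09) and 2 h (1.01) of HL and J3 at 1 h of HL (1.06, from 486 ± 24.1 to 1017 ± 25.3 CPM), and at every time of LL both passed the adjusted p alone. The J2 call at 2 h was lost without replicate 1 of HL 0 h (0.98) or replicate 1 of HL 2 h (0.96).

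HSC70-1, the constitutive cytosolic HSP70, was the most abundant of the genes and made up 38.6 to 59.3% of their summed level in a library. In LL it read 2767, 2416 and 3299 CPM at 0 h, 4738, 4788 and 4523 CPM at 1 h, 5670, 6195 and 4951 CPM at 2 h, and 4169, 4881 and 5136 CPM at 4 h. In HL it read 3274, 3183 and 3033 CPM at 0 h, 5329, 5670 and 5336 CPM at 1 h, 5963, 6614 and 6185 CPM at 2 h, and 4097, 4380 and 4379 CPM at 4 h. All later libraries were above those of 0 h at both lights, with the highest means at 2 h. The change reached 2-fold in LL at 2 h (1.00, SE 0.14, adjusted p = 2.77e-05), a call on the edge of the limit that fell to between 0.90 and 0.99 with RLE size factors, with a filter on low counts, with DESeq2, in 1 fit of 24 libraries, and without replicate 1 or 2 of LL 0 h or replicate 1 or 2 of LL 2 h. In HL it passed the adjusted p alone, with 0.78, 0.95 and 0.40 at 1, 2 and 4 h. At 4 h the HL change minus the LL change was -0.30 (95% interval -0.63 to 0.02), which did not pass the test.

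Hsp70-2 and AT3G09440, cytosolic HSP70 family genes of lower level, rose at 1 h at both lights and then fell below their 0 h level in LL. Hsp70-2 had means of 95 CPM at 0 h, then 201, 104 and 47.2 CPM at 1, 2 and 4 h of LL and of 105, 333, 191 and 134 CPM over those of HL. AT3G09440 had means of 123, 352, 111 and 48.5 CPM in LL and 162, 490, 304 and 183 CPM in HL. At 4 h of LL the libraries of Hsp70-2 (36.8, 59.4 and 45.5 CPM) and of AT3G09440 (43.4, 46.5 and 55.7 CPM) were all below those of 0 h. At 1 h the changes of Hsp70-2 were 1.09 in LL (adjusted p = 0.00109) and 1.66 in HL (1.64e-06), and those of AT3G09440 1.53 (1.2e-05) and 1.59 (2.04e-06). At 4 h of LL Hsp70-2 was called lower (-1.01, adjusted p = 0.00213) and so was AT3G09440 (-1.34, 6.18e-05), with falls from 2 to 4 h of 1.17 and 1.21 on the log2 scale, and AT3G09440 had already fallen by 1.66 from 1 to 2 h. The Hsp70-2 calls were lost at 1 h of LL without replicate 1 of LL 1 h (0.89), at 4 h of LL without replicate 2 of LL 0 h (-0.99), replicate 1 of LL 4 h (-0.87) or replicate 3 of LL 4 h (-0.98), and from 2 to 4 h without replicate 3 of LL 2 h (-0.85). The annotated gene of AT3G09440 overlaps another gene, as do those of 11 of the 37 chaperone genes in all, among them HSP101, HOP3 and J2, and the sources used here do not say whether counting used the strand. Hsp70b, the remaining cytosolic HSP70 gene with counts, had 5 to 15 counts per group and was called at no time.

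HSP90.1, HSP90.2 and HSP90.3, the cytosolic HSP90 genes of the list, were each called higher at 1 and 2 h of HL, and HSP90.1 at 1 h of LL as well. HSP90.2, a constitutive HSP90, read 104, 115 and 115 CPM at 0 h, 267, 164 and 117 CPM at 1 h, 88.3, 64.4 and 104 CPM at 2 h, and 73.6, 58.4 and 55.1 CPM at 4 h of LL. The HL values were 71.2, 36.5 and 70.9 CPM at 0 h, 215, 235 and 209 CPM at 1 h, 174, 144 and 161 CPM at 2 h, and 106, 95.9 and 108 CPM at 4 h. All HL libraries after 0 h were above those of 0 h, whereas in LL the 4 h libraries were all below. The HL changes were 1.87 (SE 0.19, adjusted p = 6.88e-07), 1.38 (1.52e-05) and 0.74 (0.00561, below 2-fold), and the LL changes 0.74 (0.03), -0.35 and -0.84 (0.0137), none of them called. Its 0 h levels differed between the lights, with HL 0 h lower by 0.88 on the log2 scale (adjusted p = 0.0218, below 2-fold), and this enters every difference of its changes. The LL fall of HSP90.2 from 1 to 2 h (-1.08, adjusted p = 0.0187) was not called without replicate 1 of LL 1 h (-0.69), replicate 1 of LL 2 h (-1.10, 0.0694) or replicate 2 of LL 2 h (-0.92).

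HSP90.3, a close relative on the same chromosome, rose from 69.2 ± 23.0 CPM at 0 h to 192 ± 29.6 CPM at 1 h and 181 ± 27.0 CPM at 2 h of HL, with changes of 1.46 (adjusted p = 2.17e-05) and 1.35 (3.33e-05). At 4 h of HL it was at 127 ± 9.39 CPM and passed the adjusted p alone. Without replicate 1 of HL 0 h it was called there (1.13, adjusted p = 0.000326). Its LL changes were 0.87 (adjusted p = 0.00351, below 2-fold), -0.12 and -0.47. HSP90.1, the heat-inducible cytosolic HSP90, was counted rarely, with 7, 30, 14 and 3 reads summed over the 3 libraries of 0, 1, 2 and 4 h of LL and 4, 36, 27 and 18 reads in HL. The ratio of scaled counts at 1 h to 0 h was 4.49 in LL (exact 95% interval 1.93 to 12.1, counting error only) and 7.82 in HL (2.80 to 30.2), and at 2 and 4 h of HL it was 5.95 (2.07 to 23.4) and 4.19 (1.38 to 17.0). It was called at 1 h of LL (adjusted p = 0.035) and at all 3 times of HL (0.000513, 0.0024 and 0.0186). The LL call was lost with DESeq2 (0.101), with the replicate number as a block (0.0613) and without replicate 1, 2 or 3 of LL 0 h (0.104, 0.0832 and 0.0639) or replicate 1 of LL 1 h (0.269), and the HL call at 4 h with DESeq2 (0.0943) and without replicate 3 of HL 0 h, replicate 2 of HL 4 h or replicate 3 of HL 4 h (0.0793, 0.0584 and 0.0629).

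Among the other partners of cytosolic HSP90, ROF1, a peptidyl-prolyl isomerase of the FKBP class, had means of 22.1, 39.9, 24.9 and 19.0 CPM in LL and 16.0, 56.2, 43.2 and 38.5 CPM in HL. It rose at each time of HL (1.79, adjusted p = 8.23e-07; 1.39, 1.27e-05; 1.22, 5.19e-05) and passed the adjusted p alone at 1 h of LL (0.87, 0.012). ROF2, its heat-induced relative, had 3, 12, 14 and 1 reads summed over the 3 libraries of each HL time and was called at none of them. Since a gene entered a table only with at least 5 reads in some library, ROF2 could enter only through the groups where it was high. SGT1A, an HSP90 co-chaperone known from immune receptor folding, rose at 1 h of HL from 34.0 ± 14.4 to 83.2 ± 6.21 CPM (1.26, adjusted p = 0.000631), a call lost without replicate 2 of HL 0 h (1.00). BAG6, a calmodulin-binding BAG-domain protein, had 15 reads at 0 h and 1 at 4 h of LL, a ratio of 0.0552 (exact 95% interval 0.00131 to 0.359), and its call as lower was lost without replicate 2 of LL 0 h (adjusted p = 0.0521).

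The ER genes showed a smaller rise than the cytosolic genes, and most had their highest mean later. For 3 of the 4 the mean peaked at 2 h at either light. None was called higher at any time. In the 300 bases before the start codon, the window chosen second, BIP1 and BIP2 both held ER stress element II (ATTGG, any base, then CCACG). It is a sequence that bZIP factors of the unfolded protein response are known to use, and 0.0547% of 27443 protein-coding genes held it there. In the first window, before the annotated gene start, none of the 37 genes held it, against 0.0656% of all. ER stress element I matched in none of the 37 genes and in 0.0182% of all. The sites of BIP1 and BIP2 are shown with the element in capitals:
BIP1 (chr5:10543422-10543451, minus strand): cgtaagataATTGGTCCACGtcatctctga
BIP2 (chr5:16810653-16810682, minus strand): cgtaagataATTGGTCCACGtcatctccga
BIP1, the main ER lumenal HSP70, read 726, 620 and 828 CPM at 0 h, 960, 1139 and 1291 CPM at 1 h, 1458, 1351 and 1238 CPM at 2 h, and 670, 768 and 853 CPM at 4 h of HL. Its 1 h and 2 h libraries of HL were all above those of 0 h, and its 4 h libraries were not. The changes in HL were 0.64 (adjusted p = 0.00233), 0.87 (8.58e-05) and 0.04, and in LL 0.14, 0.51 (0.0212) and -0.26, with means of 669, 736, 944 and 559 CPM.

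BIP2 went from 554 ± 91.5 CPM at 0 h of HL to 807 ± 114, 915 ± 113 and 497 ± 56.6 CPM, passing the adjusted p alone at 1 h (0.54, adjusted p = 0.0127) and 2 h (0.69, 0.00134). In LL it had 517 ± 104 CPM at 0 h and 340 ± 42.7 CPM at 4 h (-0.61, 0.0068, below 2-fold). Of the last 500 transcript bases of BIP2, 376 align to BIP1 at 95.2% identity, so some reads of the pair may have been assigned to the wrong copy. HSP90.7, the ER HSP90, had means of 477, 599, 768 and 486 CPM in HL and passed the adjusted p alone at 2 h (0.66, adjusted p = 0.000204). BIP3, the ER HSP70 that is nearly silent without ER stress, fell in LL from 43 reads at 0 h to 12 at 4 h (-2.07, adjusted p = 0.0153; ratio 0.231, exact 95% interval 0.111 to 0.446). That call was lost without replicate 2 of LL 0 h (-1.98, 0.0517) or replicate 3 of LL 4 h (-1.50, 0.0559). In HL, BIP3 had 44, 60, 40 and 18 reads and no call, but at 4 h it was called lower with the replicate number as a block (-1.42, adjusted p = 0.0389) and without replicate 3 of HL 4 h (-2.94, 0.00603).

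Of the 7 chloroplast genes, 1 was called higher at 1 h, 3 at 2 h and 3 at 4 h of HL (3.96%, 4.71% and 7.51% of all genes). In HL 3 had their highest mean at 2 h and 3 at 4 h, and none was called higher in LL. A 3-block heat shock element before the start codon was held by 0.747% of all protein-coding genes. None of the 7 held 1 before the annotated gene start. The HSP70 genes of the stroma both held a 3-block heat shock element before the start codon, shown with the blocks in capitals:
cpHSC70-1 (chr4:12589906-12589935, plus strand): atcttctcTTCTCGAAACTTCaagtggggt
cpHSC70-2 (chr5:20303341-20303370, plus strand): caaccattTTCTAGAACCTTCcacttcttc
HSP90.5 (AT2G04030; chr2:1281754-1286144, plus strand), the stromal HSP90, read 79.7, 64.3 and 85.2 CPM at 0 h, 104, 74.7 and 80.7 CPM at 1 h, 95.8, 139 and 98 CPM at 2 h, and 105, 122 and 99.5 CPM at 4 h of LL. In HL its libraries read 88.2, 67.9 and 62.2 CPM at 0 h, 127, 142 and 138 CPM at 1 h, 217, 210 and 270 CPM at 2 h, and 237, 231 and 217 CPM at 4 h. From 2 h on every HL library was above every LL library, and the HL level did not drop between 2 and 4 h (-0.03, 95% interval -0.33 to 0.27). The HL changes were 0.89 (adjusted p = 0.000333, below 2-fold), 1.64 (SE 0.15, 1.62e-07) and 1.61 (SE 0.15, 1.34e-07). The LL changes were 0.20, 0.55 (0.0287) and 0.51 (0.0335), all below 2-fold.

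cpHSC70-2, the less abundant stromal HSP70, read 50.9, 13.1 and 46.7 CPM at 0 h, 135, 137 and 113 CPM at 1 h, 128, 104 and 136 CPM at 2 h, and 140, 91.3 and 120 CPM at 4 h of HL. All later HL libraries were above those of 0 h, of which replicate 2 stood low, and every LL 0 h library (57.6, 64.9 and 65.3 CPM) was above every HL 0 h library. The HL changes were 1.76 (adjusted p = 0.000145), 1.68 (0.000176) and 1.60 (0.000228), and the LL means were 62.6, 106, 96.8 and 75.5 CPM with changes of 0.77 (0.0203) and 0.66 (0.0403) at 1 and 2 h that stayed below 2-fold. cpHSC70-1, the main stromal HSP70, had the higher mean of the pair in all 8 groups and moved less, from 439 ± 7.15 CPM at 0 h to 629 ± 39.2 CPM at 4 h of HL (0.48, 0.00248) and from 368 ± 21.5 to 475 ± 47.9 CPM in LL (0.36, 0.0305). CPN60A1, a subunit of the stromal chaperonin, had 30, 59, 79 and 75 reads over the HL times and was called at 2 h (1.18, adjusted p = 0.00964) and 4 h (1.17, 0.00862). The 2 h call was lost without replicate 1 of HL 2 h (1.00, 0.0547).

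CPN60B1, another subunit of that chaperonin, CPN20, its lid co-chaperonin, and CLPB3, the stromal disaggregase, were counted at low levels. CPN60B1 read 18.4, 24.3 and 13.5 CPM at 0 h, 4.4, 1.78 and 4.7 CPM at 1 h, 13.6, 4.44 and 12.9 CPM at 2 h, and 10.4, 3.62 and 3.21 CPM at 4 h of LL. In HL it read 4.52, 5.11 and 2.88 CPM at 0 h and 6.16, 4.07 and 7.52 CPM at 4 h. Every LL 0 h library was above every HL 0 h library, and at 4 h the lights overlapped, with means of 5.76 CPM in LL and 5.92 CPM in HL. CPN60B1 was called lower at 1 h (-2.30, adjusted p = 0.00225) and 4 h (-1.72, 0.00487) of LL, and was the 1 chaperone gene called between HL 0 h and LL 0 h (-2.19, 0.00286). CPN20 was called lower at the same LL times (-2.62, 0.00936, and -1.98, 0.0155), from 18.4, 28.2 and 2.39 CPM at 0 h, where replicate 3 stood far below the others. The CPN20 calls were lost at 1 h without replicate 2 of LL 0 h (-1.99, 0.0757) and at 4 h without replicate 2 of LL 0 h (-1.34, 0.151), replicate 2 of LL 4 h (-1.86, 0.0592) or replicate 3 of LL 4 h (-1.66, 0.0738). CLPB3 had means of 11.1 and 5.92 CPM at 0 and 4 h of LL and of 4.21 and 9.90 CPM in HL, with no call against 0 h. Its HL change at 4 h was 1.16 (adjusted p = 0.0536), and it was called there with the filter on low counts (adjusted p = 0.045) and in 1 fit of 24 libraries (0.0471). At 4 h of LL it was called lower without replicate 1 of LL 4 h (-1.42, 0.029).

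**Figure D3:**
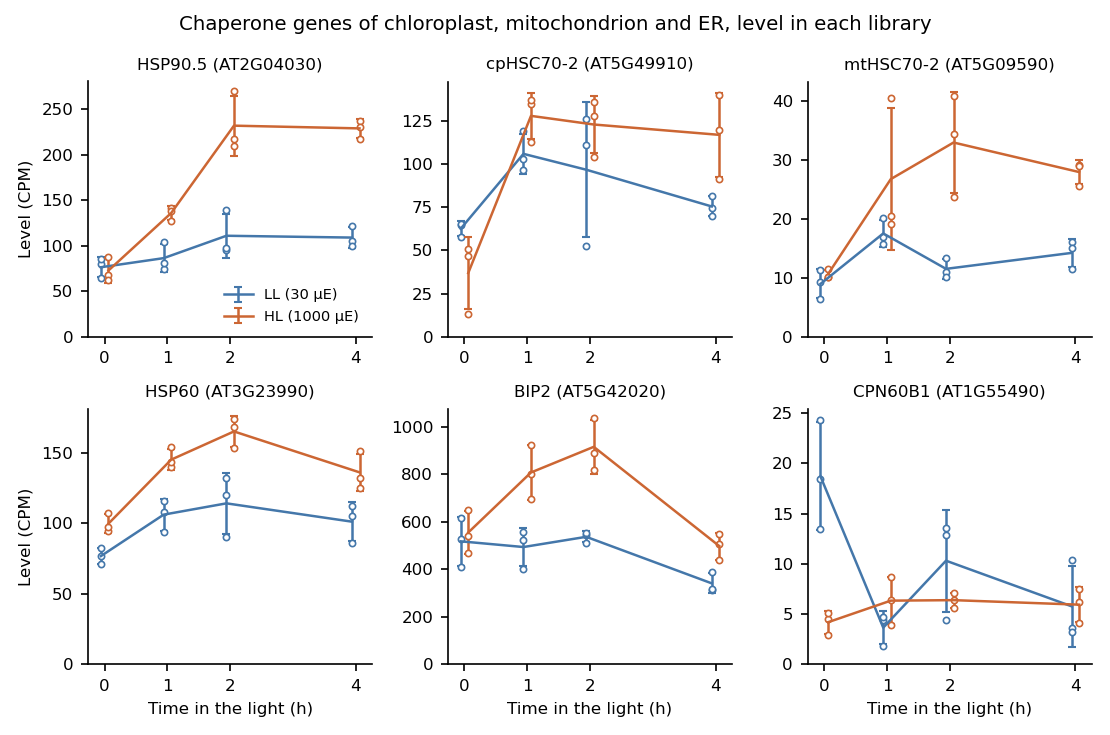
Level in CPM against time in the light for 6 genes of the chloroplast, mitochondrion and ER, drawn as in the plot of the cytosolic genes (points are libraries, bars the SD of 3). HSP90.5 stayed at 217 to 237 CPM at 4 h of HL, BIP2 was back near its 0 h level, and the LL 0 h libraries of CPN60B1 stood above all later LL libraries except that replicate 1 at 2 h reached 13.6 CPM.

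The mitochondrial genes moved in different directions. mtHSC70-1, the main HSP70 of the matrix, went from 166 ± 25.1 CPM at 0 h to 111 ± 2.18 CPM at 1 h of LL (-0.57, adjusted p = 0.0149) and from 178 ± 19.7 to 110 ± 8.41 CPM in HL (-0.70, 0.000885), and it stayed lower at 2 and 4 h of HL (-0.58 and -0.52), all below 2-fold. mtHSC70-2, its stress-responsive relative, read 10.2, 10.2 and 11.5 CPM at 0 h, 20.4, 40.5 and 19.1 CPM at 1 h, 40.8, 23.7 and 34.3 CPM at 2 h, and 29.1, 25.6 and 28.9 CPM at 4 h of HL. All later HL libraries were above those of 0 h, with changes of 1.31 (adjusted p = 0.00425), 1.60 (0.00046) and 1.34 (0.00214). The 1 h call was lost without replicate 2 of HL 1 h (0.88). The last 500 bases of mtHSC70-2 are 99.6% identical to those of AT4G32208, which is also in the tables, so the reads of these 2 genes cannot be told apart with certainty.

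HSP90.6, the mitochondrial HSP90, rose from 19.8 ± 6.27 CPM at 0 h to 46.8 ± 2.66 CPM at 1 h (1.22, adjusted p = 0.000153) and 41.4 ± 2.80 CPM at 2 h (1.02, 0.000754) of HL. At 4 h of HL it was at 39.1 ± 3.93 CPM and passed the adjusted p alone. Without replicate 3 of HL 0 h it was called there (1.22, adjusted p = 0.000208). The 2 h call was lost without replicate 1 of HL 0 h (0.91), replicate 2 of HL 0 h (0.94) or replicate 1 of HL 2 h (0.96). The chaperonin HSP60 and its co-chaperonin CPN10 moved side by side in HL at less than 2-fold, HSP60 by 0.54, 0.70 and 0.41 and CPN10 by 0.53, 0.67 and 0.50 at 1, 2 and 4 h, each past the adjusted p. In LL, HSP60 changed by 0.48 (0.0425), 0.59 (0.012) and 0.40, and CPN10 by 0.13, 0.30 and 0.15.

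The steps between later times show when the levels turned. In LL 5 chaperone genes fell from 1 to 2 h (HSP70, HSP101, AT3G09440, HSP90.2 and AT2G20560) and 4 from 2 to 4 h (HSP70, HOP3, Hsp70-2 and AT3G09440), where 0.622% and 0.677% of all genes were called lower. In HL none was called lower from 1 to 2 h (0.448% of all genes, with 2 passing the adjusted p alone), and 2, HSP70 and HSP101, fell from 2 to 4 h (0.761%). Without the 2-fold limit 10 were lower from 2 to 4 h of HL and 7 in LL (633 and 282 of all genes in either direction). HOP3 went from 76.0 to 38.6 CPM in that HL step. It was called lower only with RLE size factors (-1.001, adjusted p = 0.00305), with DESeq2 (-1.002, 0.000355), or without replicate 2 or 3 of HL 2 h or replicate 1 or 3 of HL 4 h. With RLE size factors, DESeq2 or 1 fit of 24 libraries, HSP90.3 and SGT1A were called lower from 1 to 2 h of LL as well. The counts of the LL steps moved with 1 library, from 3 without replicate 1 of LL 1 h to 8 without replicate 3 of LL 1 h for the step from 1 to 2 h.

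Whether the change differed between the lights was tested as HL change minus LL change, over 34 genes. The estimate was above 0 for 29 genes at 1 h, 32 at 2 h and 31 at 4 h, with medians of 0.58, 0.81 and 0.88, while the median over all 10349 genes was between -0.03 and 0.02. Called as more positive in HL were 1 gene at 1 h (0.696% of all genes), 7 at 2 h (0.879%) and 13 at 4 h (2.42%), and none was called as more negative (0.0676%, 0.116% and 0.502%). The 95% interval, which is not adjusted for the number of genes, lay above 0 for 11, 17 and 18 genes and below 0 for none. The shares of all genes with an estimate or an interval above 0 were not computed. At 4 h the 13 were 8 of 18 cytosolic and 5 of 7 chloroplast genes, with none of the 4 ER or 5 mitochondrial genes. With 2.42% of all genes called, 4 or 5 genes without a call do not set a compartment apart. The mitochondrial HSP90.6 was called at 4 h without replicate 3 of HL 0 h (1.19, adjusted p = 0.022). In the same test 3 of the 4 shoot markers were called as more positive in HL (median 1.60, against 1.36 for the chloroplast chaperone genes and 1.34 for the cytosolic ones). The remaining 1 passed the adjusted p alone as more negative (-0.967). The part of the shoot markers in these differences was not tested.

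**Figure D4:**
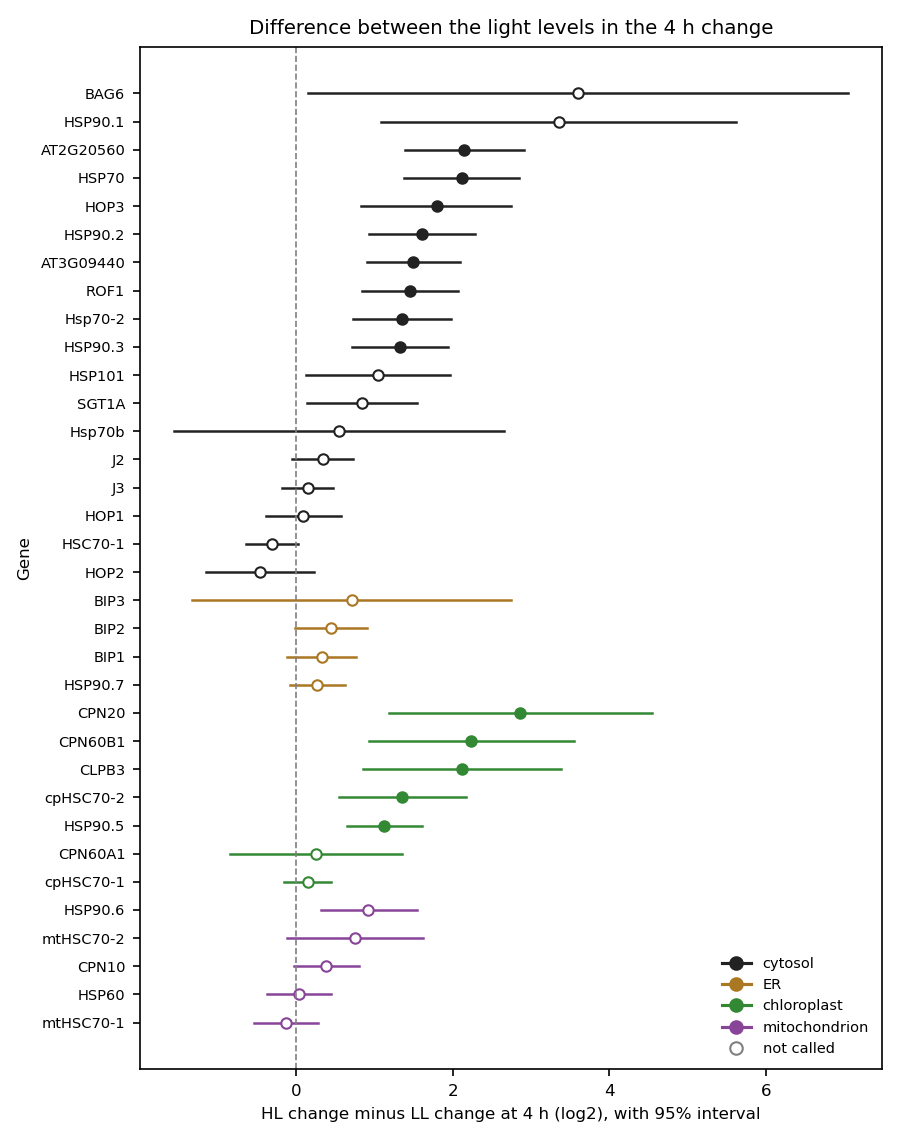
HL change minus LL change at 4 h in log2 (points) with its 95% interval (lines) for 34 genes, coloured by compartment; filled points are called, open points are not. All 13 called genes lie to the right of 0 and belong to the cytosol or the chloroplast.

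In the cytosol the differences at 4 h were 2.15 for AT2G20560 (SE 0.37, adjusted p = 0.000715), 2.12 for HSP70 (SE 0.36, 0.000646), 1.79 for HOP3 (0.0249), 1.61 for HSP90.2 (0.00381), 1.50 for AT3G09440 (0.00216), 1.45 for ROF1 (0.00408), 1.36 for Hsp70-2 (0.0083) and 1.33 for HSP90.3 (0.00846). For Hsp70-2 and AT3G09440 the LL fall below 0 h makes up most of the difference, since their HL changes at 4 h were 0.32 and 0.13. At 2 h the called differences were 1.98 for AT2G20560 (adjusted p = 0.00389), 1.77 for HSP90.2 (0.00402), 1.51 for HSP70 (0.0228) and HSP90.3 (0.00593), 1.24 for ROF1 (0.0304), 1.15 for the mitochondrial HSP90.6 (0.0487) and 1.13 for the chloroplast HSP90.5 (0.0101). HSP101 did not pass at 4 h (1.05, 95% interval 0.13 to 1.97, adjusted p = 0.21). Nor did it at 2 h (1.59, adjusted p = 0.056), where DESeq2 called it (1.59, 0.0318), as it did AT3G09440 (1.04, 0.0192 against 0.056).

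Several of these differences hung on single libraries. At 2 h the count of 7 became 4 without replicate 2 or 3 of LL 0 h, replicate 2 or 3 of HL 0 h, or replicate 1 of HL 2 h. At 4 h the count of 13 became 8 without replicate 2 of LL 0 h or replicate 3 of LL 4 h. The HOP3 call at 4 h was lost without replicate 2 of LL 0 h, replicate 3 of LL 4 h, replicate 3 of HL 0 h or replicate 1 of HL 4 h (adjusted p up to 0.0817). At 2 h, HSP70 was lost without replicate 2 or 3 of LL 0 h, replicate 3 of LL 2 h, replicate 2 or 3 of HL 0 h, or replicate 1 of HL 2 h (adjusted p up to 0.0922), ROF1 with all but 3 of the 12 libraries left out in turn (replicate 1 of LL 0 h, replicate 2 of LL 2 h and replicate 2 of HL 2 h; adjusted p up to 0.119), and HSP90.6 with all but replicate 3 of LL 2 h and replicate 3 of HL 0 h (up to 0.147), and also with the replicate number as a block (1.17, 0.0596). HSP90.5 had a difference of 1.13 at 4 h (SE 0.23, adjusted p = 0.00411), and without replicate 3 of HL 0 h it fell to 0.98 at 2 h and 0.99 at 4 h. The other chloroplast calls at 4 h were cpHSC70-2 (1.36, 0.0468), CLPB3 (2.12, 0.0467), CPN60B1 (2.24, 0.0413) and CPN20 (2.87, 0.0409). Each was lost when any of 9 of the 12 libraries was left out, with adjusted p up to 0.126, 0.138, 0.121 and 0.166. The calls stood only without replicate 1 of HL 0 h, replicate 3 of HL 0 h or replicate 2 of HL 4 h for cpHSC70-2, without replicate 3 of LL 0 h, replicate 1 of LL 4 h or replicate 2 of HL 4 h for CLPB3 and CPN60B1, and without replicate 3 of LL 0 h, replicate 1 of LL 4 h or replicate 1 of HL 4 h for CPN20. The CPN60B1 difference at 1 h (2.90, 0.0328) stood only without replicate 3 of LL 0 h or replicate 3 of HL 1 h (otherwise up to 0.122).

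Between the 0 h groups 0 chaperone genes were called higher in HL (0.348% of all genes) and 1, CPN60B1, lower (4.14%). The 0 h estimates of CPN20 (-1.78, adjusted p = 0.0539), CLPB3 (-1.38, 0.0664) and cpHSC70-2 (-0.73, 0.152) had intervals below 0 without passing the test, and without replicate 3 of LL 0 h both CPN20 (-2.21, 0.00502) and CLPB3 (-1.57, 0.047) were called. Each of these gaps enters the difference of the changes, as for HSP90.2. The 0 h gap of HSP90.2 was called without replicate 1 of HL 0 h (-1.018, adjusted p = 0.0255) or replicate 3 of HL 0 h (-1.005, 0.0277). For CPN60B1, CPN20, CLPB3, cpHSC70-2 and HSP90.2 the difference between the light responses and the difference between the 0 h groups cannot be told apart.

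Matches to the heat shock element were set beside the 1 h changes. In the 300 bases before the annotated gene start, 7 of 37 genes (18.9%) held 2 blocks (GAANNTTC or TTCNNGAA), against 19.3% of all 27443 protein-coding genes, and 1 (2.7%) held 3 blocks, against 0.485%. In the 300 bases before the start codon, a window chosen after the first had been seen, 20 genes (54.1%) held 2 blocks, against 22.8%, and 9 (24.3%) held 3 blocks, against 0.747%. Each 3-block match also counts as overlapping 2-block matches. Of the 9 genes with 3 blocks, 6 were called higher at 1 h of LL, with a median change of 1.53, and 7 at 1 h of HL, with a median of 1.76. Of the genes without them, 1 of 25 was called in LL (median 0.14) and 9 of 26 in HL (median 0.71). Over all genes tested, 3.42% in LL and 3.96% in HL were called higher at 1 h. Of 11441 genes with counts, 105 held 3 blocks in this window, and how many of these were called was not computed. The split therefore describes the chaperone list alone. The exception in LL was HSP101, whose window held no 3-block match and which had the largest change of the 34 genes at 1 h of LL. HSC70-1 and cpHSC70-1 held the element and were not called at 1 h. A match is a string in the sequence and no binding was measured.

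Companion genes of the same pathways were read from fixed lists, and their shares were not tested against those of the chaperones. Over all genes tested, 3.42%, 4.34% and 5.74% were called higher at 1, 2 and 4 h of LL, and 3.96%, 4.71% and 7.51% in HL. Called lower were 7.01%, 8.15% and 10.8% of all genes in LL, and 5.05%, 7.2% and 8.17% in HL. Of 24 further cytosolic co-chaperone and HSP90 genes, 18 were tested in LL and 19 in HL, and 1 of them, AT3G12050 with an Aha1 domain that activates HSP90, rose at 1 h at both lights (1.45 in LL, from 86.0 to 233 CPM, adjusted p = 6.64e-07; 1.54 in HL, from 104 to 303 CPM, 2.17e-07). At 2 h, 2 of the co-chaperone list were called lower in LL and 1 higher in HL. At 4 h of LL 2 of them were lower, the nucleotide exchange factor Fes1B (30 to 3 reads) and HSP90.4 (-1.11, adjusted p = 0.0321, 51 to 28 reads), and at 4 h of HL none was called. Of 17 ER folding genes, 15 were tested in LL and 17 in HL. SDF2 (-1.81, adjusted p = 0.011) and BAG7 (-1.08, 0.000374) were lower at 4 h of LL, and P58IPK (1.03, 0.00094) and SDF2 (1.92, 0.0454) higher at 2 h of HL. In both lists the count lower at 4 h of LL lies near the share over all genes (10.8%). Of 15 further organellar chaperonin and Clp genes, 9 were tested at either light and 1, the chaperonin subunit Cpn60beta2, rose at all 3 times of HL (1.05, 1.58 and 1.39, from 38.9 CPM at 0 h to 81.3, 120 and 105 CPM) and at none in LL.

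Of 12 heat shock factor genes and their coactivators, 8 were tested in LL and 4 of them rose at 1 h (3.42% of all genes). Of the 7 tested in HL 3 rose at 1 h (3.96%). MBF1C, a coactivator of the heat response, had means of 28.1, 381, 73.2 and 33.2 CPM over the LL times and 22.0, 387, 274 and 151 CPM over the HL times. Its changes were 3.74 (adjusted p = 3.82e-09) at 1 h of LL and 4.12 (3.14e-11) at 1 h of HL, and 2.73 at 4 h of HL (6.97e-10). Set against LL, its HL change was larger by 2.27 at 2 h, with an adjusted p of 0.000214, and by 2.55 at 4 h (1.63e-05). At 4 h of HL HSFB2B was higher as well (1.60, 0.000797) and HSFA3 lower (-1.59, 0.000236).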

How the data were processed

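The 24 bulk MARS-seq libraries were sequenced on a NextSeq 500. The authors demultiplexed with bcl2fastq, trimmed with cutadapt, aligned to Araport 11 with STAR 2.4.2a, counted with HTSeq-count, kept genes with at least 5 reads in 1 sample (the lowest maximum is 6 in both tables), and deposited raw counts in 1 table per light. How molecular identifiers and strand were handled is not given in the sources used here. The authors also deposited normalized signal values and regularised log2 values from DESeq2, and their own fold changes and p-values, none of which was used. No per-sample column was left unlisted (0). Counts were tested with edgeR 4.0.16 in R 4.3.3 (TMM, quasi-likelihood), in 1 fit of 12 libraries per light, and over both lights in 1 fit of 24 libraries and 10349 genes, where the study used DESeq2. Adjustment was over all genes tested. Alternatives were RLE size factors, filterByExpr, DESeq2 1.42.0, 1 fit of 24 libraries, the replicate number as a block, no 2-fold limit, and each library left out. The test was tested on simulated data, with changes put only into genes of higher mean count. At 4 h it called 41% of 2-fold and 97% of 4-fold changes in LL (fit of 10930 genes) and 49% and 96% in HL (11166 genes). By the adjusted p alone, 61% of the 2-fold changes passed in LL and 72% in HL, since an estimate below 2-fold is not called. Unchanged genes called were 9 in LL and 12 in HL. These rates do not cover rarely counted genes. Replicates of a group differed beyond sampling noise (chi-square 2.51 to 10.1 per degree of freedom). With 3 against 3 libraries an exact permutation test cannot go below p = 0.1, so none is given. Transcript ends were compared with blastn 2.17.0, and a copy needed 95% identity over 50 of the last 500 bases. All 37 identifiers are in the TAIR10.1 annotation. All 37 genes were to be named, and of the companion lists up to 3 called genes each. The genes, lists and tests were chosen with earlier results of these data known.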

Additional observations from a re-analysis of the deposited data

Results flagged for a closer look

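A chaperone gene was singled out here where its change from 0 h differed between HL and LL by the test of that difference. With 3 libraries per group no test for a single outlying library was made. At 1 h this held for CPN60B1, whose HL change exceeded its LL change by 2.90 on the log2 scale. At 2 h the differences were 1.51 for HSP70, 1.77 for HSP90.2, 1.51 for HSP90.3, 1.13 for HSP90.5, 1.15 for HSP90.6, 1.24 for ROF1 and 1.98 for AT2G20560. At 4 h they were 1.36 for Hsp70-2, 1.50 for AT3G09440, 2.12 for HSP70, 1.36 for cpHSC70-2, 1.61 for HSP90.2, 1.33 for HSP90.3, 1.13 for HSP90.5, 2.12 for CLPB3, 1.79 for HOP3, 1.45 for ROF1, 2.15 for AT2G20560, 2.24 for CPN60B1 and 2.87 for CPN20. HSP70, HSP90.2, HSP90.3, HSP90.5, ROF1 and AT2G20560 were called at both 2 and 4 h. Those of CPN60B1, CPN20 and CLPB3 rest on levels under 30 CPM in every library.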

How the results depend on the processing

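Of 91 called values of the chaperone genes over all comparisons, 61 kept their call under every alternative and 30 lost it with at least 1 library left out, 4 of them also under RLE, filterByExpr, DESeq2, the 24-library fit or the block; 0 reversed. A gene that filterByExpr leaves untested counts as neither. Dropping the 2-fold limit raised the counts of called genes at 1, 2 and 4 h of LL to 21, 12 and 14, against 2174, 2573 and 3158 of all 10930 genes. At 4 h of LL 5 of the 14 were higher and 9 lower. At 1, 2 and 4 h of HL the counts rose to 23, 25 and 20, against 1968, 2433 and 3010 of all 11166 genes. For the LL steps from 1 to 2 h and from 2 to 4 h they rose to 8 and 7 (203 and 282 of all genes). They rose to 3 and 10 for the HL steps (174 and 633), and to 2 for the 0 h groups (659). With each library left out in turn, the counts ran from 8 to 13 at 1 h, from 2 to 5 at 2 h and from 2 to 6 at 4 h of LL (2 without LL 0 h replicate 2, 3 without LL 4 h replicate 3), from 3 to 8 for the LL step from 1 to 2 h, from 0 to 2, 4 to 7 and 8 to 12 for the HL minus LL difference at 1, 2 and 4 h, and from 1 to 3 for the 0 h groups. DESeq2 gave 2 in place of 1 for the difference at 1 h (HSP90.2 added, adjusted p = 0.037) and 9 in place of 7 at 2 h. The same replicate numbers do not pair the libraries (correlations of same-numbered deviations from -0.311 to 0.279). With the replicate block the count was 8 at 1 h of LL (HSP90.1 lost), 11 at 4 h of HL (BIP3 called lower, -1.42) and 6 for the difference at 2 h (HSP90.6 lost), and the other counts were those of the fit without it. Depth limits HSP90.1, BIP3, BAG6, ROF2, Hsp70b, CPN60B1, CPN20 and CLPB3, where counting intervals are wide and a missed call does not show an unchanged level.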
